A study of Mus musculus with 10 samples.

Results

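The aryl hydrocarbon receptor, its dimer partner, its repressor and 4 of its transcriptional targets were described in C3H10 T1/2 cells, a mouse embryo mesenchymal line used as a model of osteogenic differentiation. The 7 genes were Ahr, Arnt, Ahrr, Cyp1a1, Cyp1b1, Aldh3a1 and Tiparp. They were chosen by name from 46095 gene symbols in the RNA-seq count table with their response to strain already known, and all 7 were among the 15335 genes that passed the filter on low counts. Peaks of open chromatin were taken within 5 kb of each gene body, which gave 13 merged regions of 29289 in all.

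RNA-seq compared 3 libraries from cells under cyclic mechanical strain with 3 from static control cells. Both groups grew for 48 h on collagen-coated flexible plates. The strained cells were then stretched at 0.5 Hz to 10% elongation for 8 h per day over 3 days. ATAC-seq, which marks open chromatin through insertion by the Tn5 transposase, compared 2 libraries from cells in which Piezo1, a mechanically gated ion channel, had been knocked out with CRISPR/Cas9, with 2 libraries from GFP control cells. The labels name no strain on the ATAC-seq cells, so no library joins the knockout with stretching. They do not say whether the knockout cells are 1 clone or whether each replicate had its own culture, and the p-values speak only to differences among the libraries, part of which could be technical. RNA-seq libraries came from cDNA amplified with a kit made for single cells, with no molecular identifiers named, so counting intervals cover counting error only. The labels give the RNA-seq cells the strain C57BL/6.

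The aryl hydrocarbon receptor is a transcription factor of the bHLH-PAS class that rests in the cytoplasm with HSP90 chaperones. When a planar aromatic ligand binds, such as a dioxin or a product of tryptophan breakdown, it moves to the nucleus, pairs with ARNT and binds xenobiotic response elements with the core GCGTG. Its targets include P450 enzymes that clear the ligand, and the repressor AHRR and the ADP-ribosyltransferase TIPARP, which both act back on the receptor. CYP1B1 is the family member best known from mesenchymal and other non-hepatic cells.

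The bases around annotated start sites are shown because they hold the response core in every member with an entry in the promoter table. RefSeq, on GRCm38.p6 (the mm10 build that the peak lists use), gave a window of 250 bases before to 50 after the start for 5 of the 7 genes, with no entry for Ahr and Aldh3a1. Capitals mark GCGTG, or CACGC where the core lies on the other strand. The Cyp1a1 window is chr9:57697363-57697662 on the plus strand, the Ahrr window chr13:74292282-74292581 on the minus strand, the Cyp1b1 window chr17:79715012-79715311 on the minus strand and the Tiparp window chr3:65528197-65528496 on the plus strand.
Cyp1a1: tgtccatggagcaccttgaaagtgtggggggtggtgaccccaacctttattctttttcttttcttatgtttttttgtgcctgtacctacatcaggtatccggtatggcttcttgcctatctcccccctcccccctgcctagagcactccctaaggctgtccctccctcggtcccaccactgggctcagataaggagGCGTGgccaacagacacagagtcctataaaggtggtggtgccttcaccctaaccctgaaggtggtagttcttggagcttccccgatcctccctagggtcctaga
Ahrr: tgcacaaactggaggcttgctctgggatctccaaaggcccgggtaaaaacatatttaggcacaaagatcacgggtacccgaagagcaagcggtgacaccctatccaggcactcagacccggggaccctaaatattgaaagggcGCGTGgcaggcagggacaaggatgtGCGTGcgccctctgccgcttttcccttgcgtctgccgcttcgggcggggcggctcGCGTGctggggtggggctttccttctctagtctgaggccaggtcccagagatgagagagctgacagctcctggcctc
Cyp1b1: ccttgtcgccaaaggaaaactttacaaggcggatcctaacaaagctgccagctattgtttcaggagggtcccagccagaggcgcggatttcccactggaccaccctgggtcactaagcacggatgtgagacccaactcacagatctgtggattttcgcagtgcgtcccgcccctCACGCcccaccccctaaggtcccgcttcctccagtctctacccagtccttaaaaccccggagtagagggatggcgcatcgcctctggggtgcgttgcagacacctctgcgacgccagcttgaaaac
Tiparp: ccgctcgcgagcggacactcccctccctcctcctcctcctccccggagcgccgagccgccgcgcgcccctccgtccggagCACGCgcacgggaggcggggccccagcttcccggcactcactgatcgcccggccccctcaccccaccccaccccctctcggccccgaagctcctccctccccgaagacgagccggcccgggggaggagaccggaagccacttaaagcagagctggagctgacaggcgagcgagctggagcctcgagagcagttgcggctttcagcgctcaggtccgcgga
Cyp1a1 had 1 core, beginning 54 bases before the start site. Ahrr had 3 cores, at 107, 82 and 27 bases before the start, and the last also matched the longer form TNGCGTG. Cyp1b1 and Tiparp had 1 core each on the other strand, at 76 and 170 bases before the start, and Arnt had 1 at 29 bases before it. Both strands were searched, and every TNGCGTG match is also a GCGTG match. The core is common. It was in 32.4% of 32851 promoters, 3 or more copies were in 3.92%, and TNGCGTG was in 5.07%. The hypoxia core ACGTG, bound by HIF with the same partner ARNT, was in 19.6% of promoters and was not found in these 5 windows. The best-known Cyp1a1 enhancer lies further upstream than this window.

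Library totals ran from 36150738 to 41024689 counts, and CPM below is a library's count scaled by its TMM-adjusted total. At an adjusted p under 0.05 in edgeR's quasi-likelihood test, 5.94% of tested genes were higher under strain and 7.39% were lower, and the median log2 fold change of all tested genes was 0.00. With library size alone as the scale, 55.6% of calls were higher in place of 44.6%, and that median was 0.05. Mesenchymal markers were abundant, summing to 58840 to 70249 CPM in strained cells and 79833 to 88175 CPM in control cells, although Thy1 did not exceed 0.0569 CPM in any library. Col1a1, Col1a2, Col3a1 and Vim were the 4 of 8 tested mesenchymal markers that fell. The 5 hepatocyte markers, which matter here because liver is a main site of Cyp1a1 induction, summed to at most 0.105 CPM in any library. The 4 endothelial markers summed to at most 1.19 CPM, the 4 macrophage markers to at most 4.85 CPM. Among the defining markers of these types, Ttr, Cdh5, Ptprc and the epithelial Epcam were at 0 in every library. The 4 epithelial markers summed to 2.95 to 4.53 CPM in strained cells and 8.42 to 9.69 CPM in control cells, and Cdh1 fell among them. The part of these markers in the results below was not tested. In bulk libraries, fewer cells with a transcript and less of it per cell cannot be told apart.

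Of the 7 genes, 4 had an adjusted p under 0.05 and were higher under strain, namely Cyp1a1, Ahrr, Cyp1b1 and Aldh3a1. None was lower at that threshold in edgeR with all 6 libraries, the filter and no replicate block, and limma-voom gave none. With an unadjusted p under 0.05 in that edgeR fit, 6 were higher, now with Arnt and Tiparp, and 1, Ahr, was lower. Ahr was lower at the adjusted threshold in DESeq2 and in edgeR with no filter, with a replicate block and without control replicate 3. The genes were selected on this contrast, so nothing is read from these counts against the shares of all genes. Their values are given as a description with no test.

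The receptor transcript was the member with a lower mean under strain. Ahr (GRCm38.p6, chromosome 12, 35497979 to 35534989) had 39.0, 45.0 and 43.5 CPM in strained cells, against 62.5, 71.7 and 42.7 CPM in control cells. Control replicate 3 lay inside the strained range, and the other 2 control libraries lay above all 3 strained ones. The mean was 42.5 ± 3.13 CPM under strain and 59.0 ± 14.9 CPM in control (SD, n = 3 each), a log2 fold change of -0.47 ± 0.17 (SE). It ran from -0.66 without control replicate 3 to -0.31 without control replicate 2.

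Arnt, the partner that the receptor shares with the HIF proteins, spans 95434367 to 95497240 on chromosome 3. It had 110, 135 and 116 CPM in strained cells, against 102, 111 and 82.0 CPM in control cells. The groups overlapped by a narrow margin, since strained replicate 1 lay just under control replicate 2. The means were 120 ± 13.4 CPM under strain and 98.3 ± 14.8 CPM in control (SD, n = 3 each), with a log2 fold change of 0.29 ± 0.13 (SE). Without control replicate 3 it was 0.18.

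Ahrr encodes the repressor that competes with the receptor for ARNT. It had the fewest reads of the 7 under strain, with 57, 57 and 89 reads in strained cells and 28, 16 and 20 reads in control cells. These are 1.37, 1.52 and 2.16 CPM under strain, against 0.732, 0.449 and 0.569 CPM in control, and the groups did not overlap. The log2 fold change was 1.52 ± 0.34 (SE), or 2.87-fold, and the ratio of summed counts was 2.87 with an exact 95% interval of 2.16 to 3.87. Without strained replicate 3 the log2 fold change was 1.30 and the gene no longer passed the threshold. The gene spans 74211118 to 74292331 on chromosome 13.

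Cyp1a1, the P450 that oxidises polycyclic aromatic ligands, spans 57687928 to 57703824 on chromosome 9. It had 299, 308 and 360 reads in strained cells, against 3, 7 and 13 reads in control cells. In CPM these were 7.18, 8.23 and 8.72 under strain and 0.0784, 0.197 and 0.370 in control. All 3 strained libraries lay far above all 3 controls, and the strained libraries were close to one another, at 8.05 ± 0.788 CPM (SD, n = 3), against 0.215 ± 0.147 CPM in control (SD, n = 3). The log2 fold change was 5.23 ± 0.35 (SE), which is 37.4-fold and ranked 1 among all tested genes from the top. The ratio of summed counts was 38.1 (exact 95% interval 25.2 to 60.4), an interval set by the few control reads. The fold therefore moves with the controls kept, from 4.81 on the log2 scale without control replicate 1 to 5.86 without control replicate 3.

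Cyp1b1, a related P450 that also metabolises estradiol and retinoids, spans 79706940 to 79715061 on chromosome 17. It had 413, 424 and 369 CPM in strained cells, against 173, 179 and 131 CPM in control cells, and the groups were far apart. The means were 402 ± 29.2 CPM under strain and 161 ± 26.0 CPM in control (SD, n = 3 each). The log2 fold change of 1.32 ± 0.13 (SE), or 2.50-fold, rested on 4615 or more reads in every library and stayed between 1.19 and 1.40 when 1 library was left out.

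Aldh3a1, an aldehyde dehydrogenase that clears aromatic and lipid aldehydes, spans 61208510 to 61218418 on chromosome 11. It had 91.1, 106 and 116 CPM in strained cells, against 49.1, 49.4 and 61.4 CPM in control cells. The lowest strained library was above the highest control. The log2 fold change was 0.97 ± 0.13 (SE), or 1.95-fold, with a range of 0.88 to 1.08 on leaving out 1 library.

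Tiparp, which adds single ADP-ribose units to proteins including the receptor, spans 65528447 to 65555518 on chromosome 3. It had 78.1, 62.9 and 60.6 CPM in strained cells, against 57.2, 57.5 and 52.1 CPM in control cells. The groups did not overlap, but strained replicates 2 and 3 were near the controls and replicate 1 stood above them. The log2 fold change was 0.27 ± 0.12 (SE), and 0.15 without strained replicate 1. Among the NRF2 targets, genes of the oxidative stress factor NRF2 described further on, strained replicate 1 was also the highest library for 8 of 8. It was the highest for 19.2% of all tested genes. These shares are not alike, since all 8 NRF2 targets had a log2 fold change above 0, as did 7759 of all 15335 tested genes. The part of strained replicate 1 in the Tiparp value was not tested. Tiparp overlaps 4931440P22Rik, and since no strand setting is given their reads cannot be told apart. No other member overlaps an annotated gene in the RefSeq table.

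**Figure D1:**
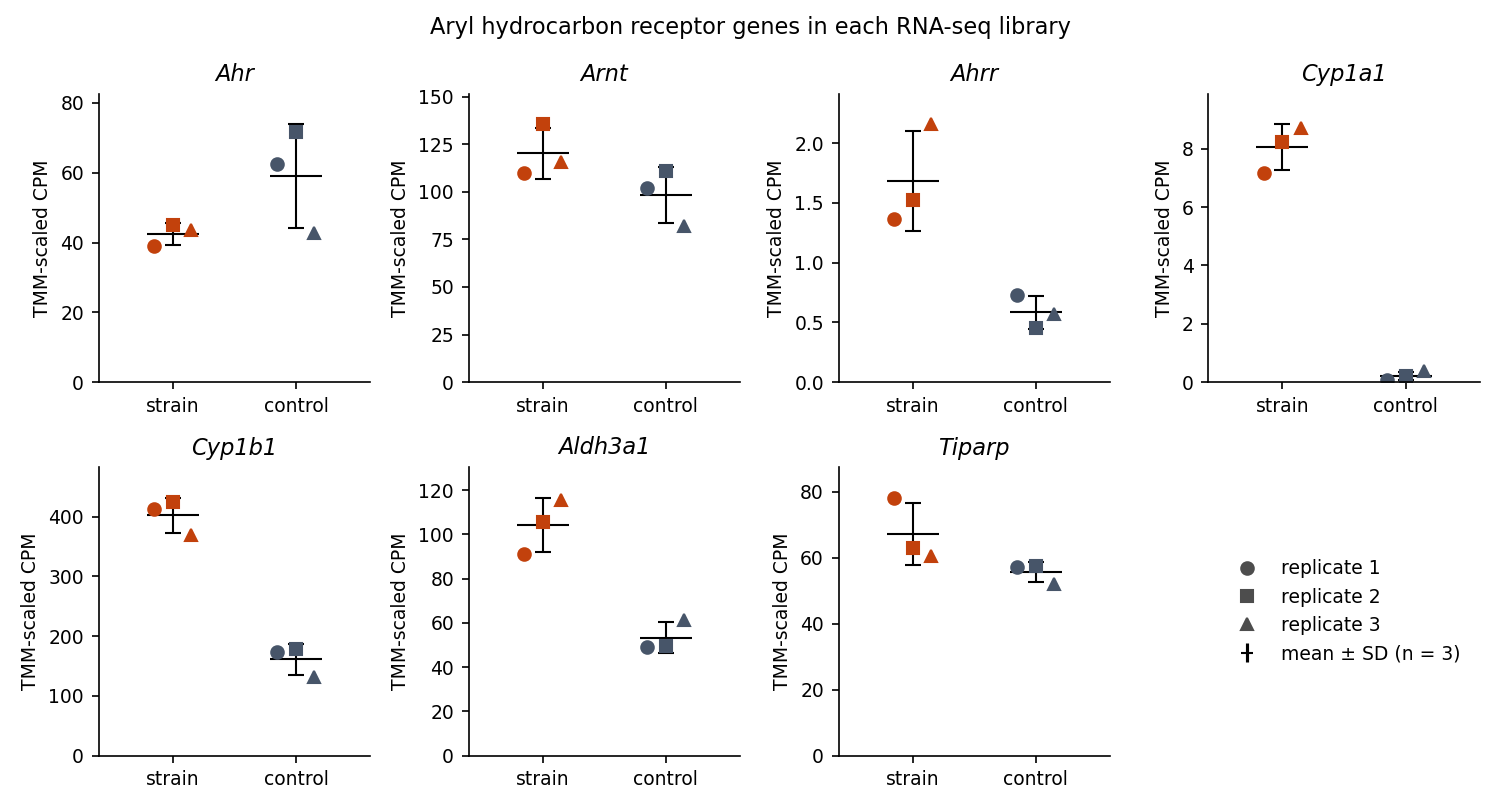
TMM-scaled CPM of the 7 genes (vertical axes from 0, a separate scale per gene) in the strained libraries on the left and the control libraries on the right of each panel; symbols mark replicates, and bars the mean ± SD of 3 libraries. Cyp1a1 lies at 7.18 to 8.72 CPM in strained cells and at most 0.370 CPM in control cells, while Ahr overlaps between the groups.

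The 7 fold changes lay in separate bands. Cyp1a1 stood alone at a log2 fold change above 5, and Ahrr, Cyp1b1 and Aldh3a1 lay between 0.97 and 1.52. The first pair of these neighbours, Ahrr and Cyp1b1, differed by less than the SE of Ahrr. Arnt and Tiparp lay at 0.29 and 0.27, closer than either SE, and Ahr alone was below 0. Of all tested genes, 0.639% had a higher fold change than Ahrr, 1.08% than Cyp1b1, 2.41% than Aldh3a1, 20.0% than Arnt and 21.2% than Tiparp, while 85.8% were above Ahr. The sign of each was the same in every library left out and under each scaling and test tried.

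**Figure D2:**
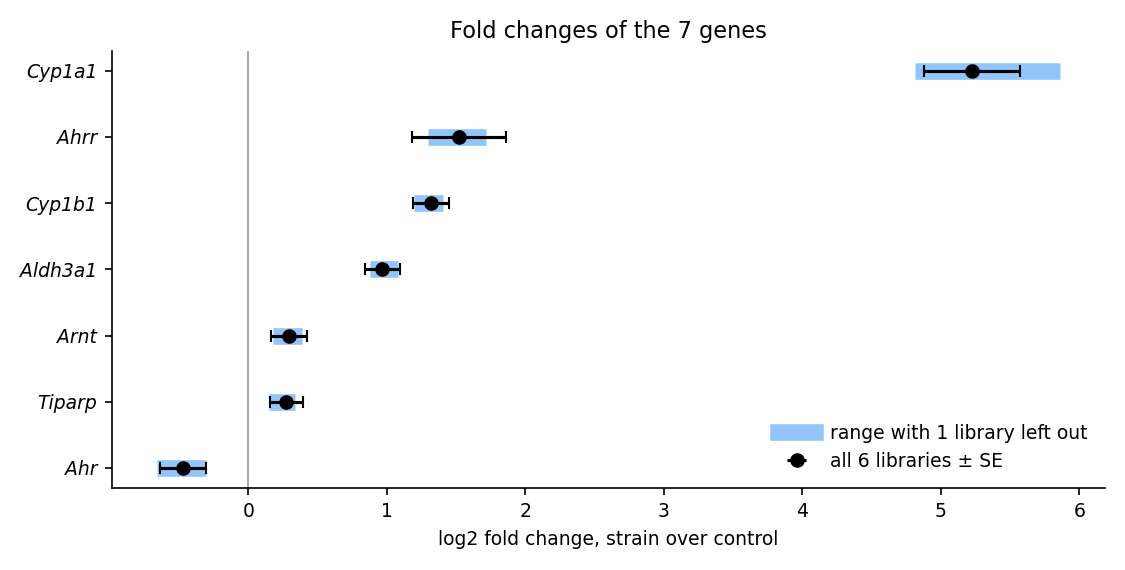
Log2 fold change of strain over control (horizontal axis) for the 7 genes, with points and bars for all 6 libraries ± SE and blue bands for the range when 1 library was left out. Only the Cyp1a1 band extends beyond 4, from 4.81 to 5.86, and the Ahr band lies wholly below 0.

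Genes of the wider pathway were then read from 11 lists with 131 genes, of which 108 were tested. They were written with earlier results of these data known, and each count stands beside the background of 5.94% higher and 7.39% lower. Over the lists, 22 genes were higher and 16 lower at an adjusted p under 0.05.

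Metabolic targets of the receptor rose in 7 of 10 tested genes and fell in 1; the median log2 fold change was 1.10, against 0.00 over all tested genes. Nqo1, a quinone reductase, had 71.8, 55.0 and 61.1 CPM in strained cells, against 18.2, 18.5 and 18.1 CPM in control cells, a log2 fold change of 1.78 ± 0.12 (SE; edgeR quasi-likelihood, adjusted p = 1.85e-05). Xdh, the xanthine dehydrogenase of purine breakdown, averaged 595 ± 50.3 CPM under strain and 314 ± 39.5 CPM in control (SD, n = 3 each; log2 fold change 0.92 ± 0.12, edgeR adjusted p = 0.00092). The glucuronosyltransferases Ugt1a6a (1.27 ± 0.13), Ugt1a7c (1.33 ± 0.21) and Ugt1a6b (1.78 ± 0.36) rose on the log2 scale, as did the glutathione transferase Gsta3 (4.30 ± 0.54). Ugt1a genes share exons and Gsta genes have near-identical copies, so these 4 values are uncertain as to which gene gave the reads. Gsta3 was at 2.45, 1.50 and 2.74 CPM under strain, against 0.0784, 0.0281 and 0.228 CPM in control. Those controls held 3, 1 and 8 reads, and the Gsta3 log2 fold change was 3.86 without control replicate 2 and 5.29 without control replicate 3. Nfe2l2, which encodes NRF2, rose by 0.38 ± 0.09 on the log2 scale (edgeR adjusted p = 0.0245). That call was lost without strained replicate 2, strained replicate 3, control replicate 1 or control replicate 2, where the log2 fold change lay between 0.35 and 0.40 and the highest adjusted p was 0.0904. Selenbp1, a selenium-binding protein, fell to 1.59, 3.18 and 1.96 CPM in strained cells, against 7.92, 7.81 and 9.70 CPM in control cells (log2 fold change -1.92 ± 0.25, edgeR adjusted p = 0.000923). The transporter Abcg2 (0.09 ± 0.11) and the P450 Cyp2s1 (-1.42 ± 0.61) did not pass. Cyp1a2, the liver P450 beside Cyp1a1 on chromosome 9, was untested, as were Cd36, Gsta1 and Gsta2, and none of these 4 exceeded 0.107 CPM in any library.

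Growth and inflammatory targets of the receptor were split, with 3 of 10 tested genes higher, 2 lower and a median of -0.06. Ptgs2, the inducible cyclooxygenase, had 103, 101 and 92.0 CPM in strained cells, against 40.3, 40.4 and 27.6 CPM in control cells (log2 fold change 1.45 ± 0.15, edgeR adjusted p = 0.000208). The EGF-receptor ligand Ereg rose by 1.09 ± 0.19 on the log2 scale (edgeR adjusted p = 0.0044) and the cytokine Il6 by 0.91 ± 0.16 (edgeR adjusted p = 0.00513). The Notch target Hes1 fell to 19.2 ± 2.14 CPM in strained cells, against 36.4 ± 4.10 CPM in control cells (SD, n = 3 each; log2 fold change -0.92 ± 0.13, edgeR adjusted p = 0.00142). Areg, another EGF-receptor ligand, fell by 1.03 ± 0.23 on the log2 scale (edgeR adjusted p = 0.0178). The Areg call was lost without strained replicate 2, strained replicate 3, control replicate 1 or control replicate 3, at log2 fold changes between -1.03 and -0.91 and adjusted p up to 0.0648. The amino acid transporter Slc7a5 (-0.14 ± 0.12), the cell cycle inhibitor Cdkn1b (-0.23 ± 0.14) and the exchange factor Sos1 (0.25 ± 0.16) did not pass.

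As listed here, NRF2 targets share Nqo1 with the metabolic targets of the receptor, which does not show that the other genes answer to 1 factor alone. The NRF2 targets rose in 6 of 8 genes, and the median log2 fold change was 1.30. Besides Nqo1, these were the glutathione synthesis subunits Gclc (1.33 ± 0.15) and Gclm (1.41 ± 0.21), the reductases Txnrd1 (0.87 ± 0.13) and Srxn1 (1.27 ± 0.19), and the cystine transporter Slc7a11 (0.88 ± 0.14), with edgeR adjusted p between 1.85e-05 and 0.0033. Hmox1, the heme-degrading oxygenase, had 1308, 273 and 318 CPM in strained cells, against 225, 216 and 259 CPM in control cells. Only strained replicate 1 was far from the controls, and Hmox1 missed the threshold (log2 fold change 1.44 ± 0.48, edgeR adjusted p = 0.073), with 0.34 without that library. It passed without strained replicate 2, at 1.79 and an edgeR adjusted p of 0.0223. Osgin1 had 69.8 CPM in strained replicate 1 and 23.5 and 26.5 CPM in the other strained libraries, against 20.0 to 26.9 CPM in control cells. In each fit with 1 library left out, the 6 called NRF2 targets had a log2 fold change of at least 0.72 and an edgeR adjusted p of at most 0.0215.

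**Figure D3:**
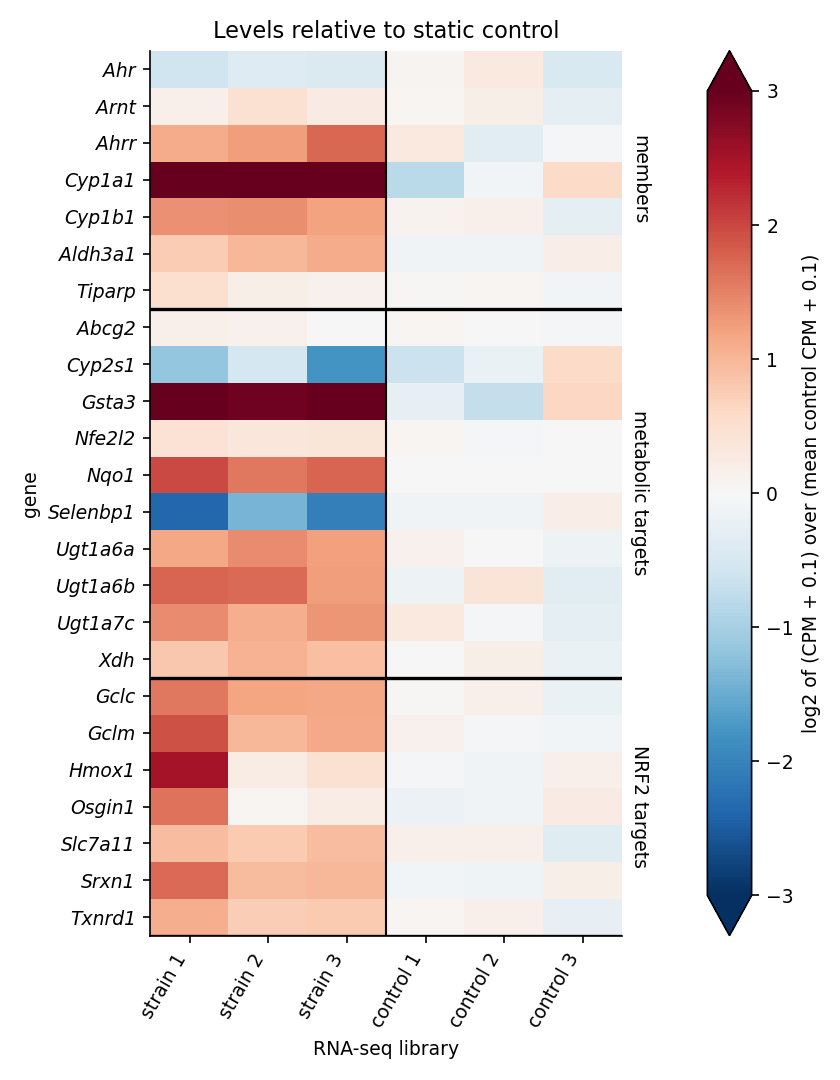
Log2 of CPM plus 0.1 relative to the mean of the control libraries plus 0.1 (colour, limited at -3 and 3) for the 7 genes, the tested metabolic targets and the NRF2 targets other than Nqo1, with strained libraries on the left and control libraries on the right. Cyp1a1 is red in all 3 strained libraries, whereas Hmox1, at 1308 CPM in strained replicate 1, is deep red only there.

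HIF targets, genes of the hypoxia factors that also use ARNT, fell in 10 of 12 genes. Their median log2 fold change was -0.91. Ankrd37, an ankyrin-repeat protein, had 4.85, 2.43 and 3.85 CPM in strained cells, against 22.6, 22.9 and 33.5 CPM in control cells (log2 fold change -2.82 ± 0.25, edgeR adjusted p = 8.84e-05). The carbonic anhydrase Car9 (-2.78 ± 0.51), the mitophagy receptor Bnip3 (-1.45 ± 0.14) and the prolyl hydroxylases Egln1 (-1.28 ± 0.11) and Egln3 (-0.98 ± 0.12) fell. The peptide hormone Adm (-0.91 ± 0.16), the kinases Pdk1 (-0.90 ± 0.13) and Pgk1 (-0.76 ± 0.14), the differentiation gene Ndrg1 (-0.83 ± 0.12) and the glucose transporter Slc2a1 (-0.49 ± 0.09) fell as well. Slc2a1 missed the threshold without control replicate 1, at -0.47 and an edgeR adjusted p of 0.0537. Ldha (-0.42 ± 0.13) and Vegfa (-0.05 ± 0.15) did not pass, and Ldha passed without control replicate 2, at -0.48 and an edgeR adjusted p of 0.0414.

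Of the other bHLH-PAS factors, the structural class of the receptor and ARNT, 2 of 13 tested rose and 1 fell, with a median of 0.32. Hif1a rose to 698 ± 27.6 CPM in strained cells, against 448 ± 76.9 CPM in control cells (SD, n = 3 each; log2 fold change 0.64 ± 0.13, edgeR adjusted p = 0.00988), so its transcript and the HIF targets moved in opposite directions. The clock factor Arntl2 rose by 0.46 ± 0.13 (edgeR adjusted p = 0.0435) and the clock repressor Per1 fell by 0.62 ± 0.11 on the log2 scale (edgeR adjusted p = 0.0047). Arntl2 lost its call without strained replicate 2 or 3 or control replicate 1 or 3, with log2 fold changes between 0.36 and 0.49 and adjusted p up to 0.181. Arntl (0.00 ± 0.10), Clock (0.33 ± 0.14) and Arnt2 (0.36 ± 0.17) did not pass. Arnt2 passed without control replicate 2, at 0.58. Epas1, which encodes the HIF subunit HIF-2 alpha, had 0.817, 1.74 and 0.969 CPM in strained cells, against 0.627, 0.337 and 0.398 CPM in control cells. The groups did not overlap, and Epas1 missed the threshold in edgeR (log2 fold change 1.35 ± 0.43, adjusted p = 0.0603), with 0.96 without strained replicate 2. It passed in DESeq2 and in edgeR with no filter.

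The chaperone complex and partners of the receptor held no call in edgeR among 9 tested genes, with 1 gene at an unadjusted p under 0.05 and no call in DESeq2 or limma-voom. Their median was 0.07. Hsp90ab1 had 2399 ± 146 CPM in strained cells and 2668 ± 268 CPM in control cells (SD, n = 3 each), and Hsp90aa1 and Stub1 had log2 fold changes of 0.07 ± 0.23 and -0.15 ± 0.12. Hsp90aa1 was highest in strained replicate 1, at 550 CPM, against 263 to 410 CPM in the other libraries.

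Coregulators, the acetyltransferases, methyltransferases and corepressors that the receptor recruits, had no call among 11 tested genes in edgeR. All 11 log2 fold changes were above 0, from 0.10 to 0.68, with a median of 0.20, and 5 genes had an unadjusted p under 0.05. Ncor1 (0.10 ± 0.10) and Smarca4 (0.20 ± 0.09) were among the most counted. DESeq2 called 4 higher, Crebbp, Ep300, Ncoa2 and Ncoa3, and limma-voom called Ep300. Control replicate 3 was the lowest control for 10 of the 11, against 41.2% of all tested genes, and leaving out control replicate 2 brought Crebbp, Ep300 and Ncoa2 under the threshold. Their log2 fold changes without it were 0.64, 0.92 and 0.77. The part of control replicate 3 in these values was not tested.

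Partners of the P450 enzymes rose in 1 of 9 tested genes, with a median of 0.17. Cyb5b, a mitochondrial cytochrome b5, averaged 255 ± 1.93 CPM under strain and 195 ± 9.59 CPM in control (SD, n = 3 each; log2 fold change 0.39 ± 0.09, edgeR adjusted p = 0.0209). It missed the threshold without strained replicate 2 or 3 or control replicate 1, where the highest adjusted p was 0.104 and the log2 fold change lay between 0.37 and 0.39. The reductase Cyb5r3 (0.01 ± 0.12) and the epoxide hydrolase Ephx1 (0.07 ± 0.10) did not pass. Alas1 and Cyb5a passed without control replicate 3, at 0.47 and 0.46.

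Among 10 PARPs that, like TIPARP, add single ADP-ribose units or are classed with those that do, 3 rose and 1 fell, with a median of 0.36. Parp3 rose by 0.54 ± 0.11, Parp12 by 0.88 ± 0.20 and Parp14 by 0.96 ± 0.24 on the log2 scale, and Parp6 fell by 0.48 ± 0.13, with edgeR adjusted p between 0.00873 and 0.0335. None of the 4 calls held in every fit with 1 library left out. Parp3 missed without strained replicate 3 or control replicate 1 (adjusted p up to 0.0566), Parp12 without strained replicate 2 or control replicate 1 (up to 0.0652), and Parp14 without strained replicate 1 or 2 or control replicate 1 (up to 0.0873). Parp6 missed without strained replicate 2 or 3 or control replicate 1 or 3 (up to 0.121). Over all 6 fits with a library left out, the log2 fold changes lay between 0.47 and 0.63 for Parp3, 0.69 and 1.15 for Parp12, 0.73 and 1.27 for Parp14, and -0.59 and -0.42 for Parp6. Parp9 (0.55 ± 0.19), Parp10 (0.28 ± 0.13) and Parp8 (0.29 ± 0.10) did not pass, while Parp9 and Parp11 passed without control replicate 2, at 0.80 and 0.52.

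Aldh3a1 was set beside the other aldehyde dehydrogenases, of which 1 of 16 tested rose and 1 fell, with a median of -0.08. Aldh3a2, its fatty aldehyde neighbour on the same chromosome, rose by 0.54 ± 0.11 on the log2 scale (edgeR adjusted p = 0.00956). That call was lost without strained replicate 2 or 3, at log2 fold changes of 0.49 and 0.52 and adjusted p up to 0.0554. Aldh1a1, which makes retinoic acid, fell to 3.70, 4.94 and 3.66 CPM in strained cells, against 8.83, 8.74 and 8.93 CPM in control cells (log2 fold change -1.11 ± 0.17, edgeR adjusted p = 0.00212). Aldh2 (0.13 ± 0.10), Aldh18a1 (0.01 ± 0.11) and Aldh1l2 (-0.21 ± 0.15) did not pass, and Aldh1l2 passed without control replicate 3, at -0.38.

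Of 12 enzymes that act on tryptophan or its products, some of which are receptor ligands, 8 were untested. None of these 8 exceeded 0.0853 CPM in any library. They included Ido1, Tdo2 and Il4i1, which each take a first step from tryptophan. The 4 tested, Afmid (-0.16 ± 0.15), Kyat1 (-0.37 ± 0.15), Kyat3 (-0.10 ± 0.18) and Ido2 (0.00 ± 0.25), had a median of -0.13. EdgeR, DESeq2 and limma-voom called none, and 1 was lower at an unadjusted p under 0.05.

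**Figure D4:**
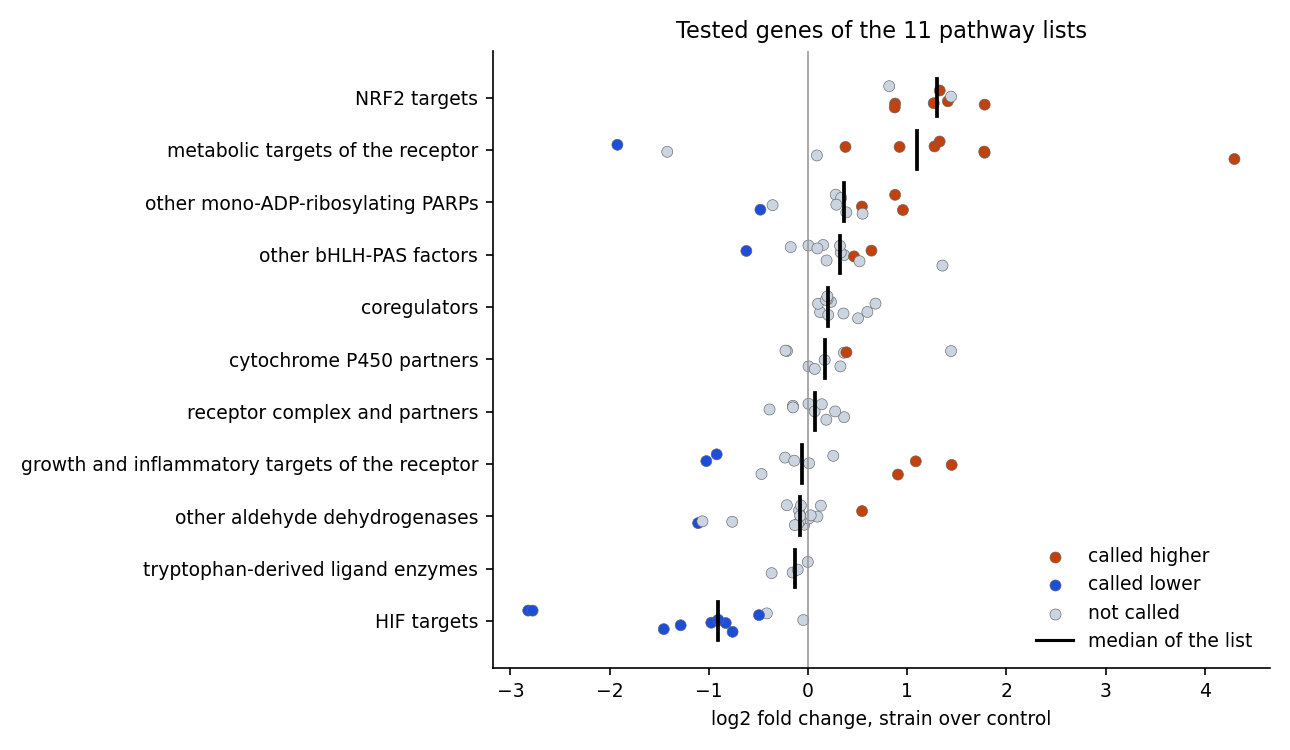
Log2 fold change of strain over control (horizontal axis) for the 108 tested genes of 11 lists. Each gene has 1 point in every list that holds it. Colour gives the edgeR call at an adjusted p under 0.05, and a black bar marks each list's median. The medians run from 1.30 for NRF2 targets to -0.91 for HIF targets.

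Profiles across the 6 libraries were compared for 4 members by the Euclidean distance between mean-centred log2 CPM. Predicted, clone-named and pseudogene models were left out, and each member was compared with 10283 genes of average log2 CPM of at least 2. None of these genes came near Cyp1a1. Its nearest, the lipoprotein receptor Lrp8, was 3.74 log2 units away, where the Cyp1a1 profile itself measures 6.33 from a flat one. Slc22a23, Fam110c and Saa3 were among the next, at 3.98 to 4.07. Cyp1a1 averaged 2.08 log2 CPM, just above the limit. Gsta3, with a log2 fold change of 4.30, averaged 0.33 log2 CPM and was not compared, nor were other genes below the limit. Cyp1b1 was closest to Ptgs2 at 0.20, then Npy1r, Fgf10, the transporter Abcc4 and Ugt1a6a at up to 0.28, against 1.67 from flat. These 5 had log2 fold changes of 1.27 to 1.48. Ahr was closest to the integrin Itga9 at 0.12, then Jag1, Kif21b, Dennd4b and Cacna1g at up to 0.26, against 0.79 from flat. Tiparp was closest to Etaa1 at 0.08, then Psmd11, Mettl16, Klhl21 and Ghitm at up to 0.10, against 0.44 from flat, and these 5 had log2 fold changes of 0.22 to 0.32. The points share libraries, depth and scaling, so these distances are descriptions.

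Open chromatin near the 7 genes was read from 1 peak list per ATAC-seq library, with 15980 and 13610 peaks in the Piezo1 knockout and 15978 and 26652 peaks in the GFP control. The GFP replicate 2 list is the longest, and the read depth behind each list is unknown. The lists give no check of the Piezo1 deletion itself. A peak within 5 kb was found in all 4 libraries for 4 of the 7 members, Arnt, Ahrr, Cyp1b1 and Tiparp. Of protein-coding genes tested in RNA-seq, as all 7 members were, 55.9% had one, a share close to that of the members. Of all 21631 protein-coding genes, 35.3% had one. No member had peaks in both knockout and neither GFP library, or the reverse, where 0.402% and 2.76% of protein-coding genes did. With 2 libraries per group no test was made.

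Peaks covered the start site of Arnt and lay close to that of Tiparp. Arnt had 2 regions in all 4 libraries, chr3:95433919-95434263 and chr3:95434267-95434722, and the second covered the start. Within each library's own list, 18.6% and 8.38% of peaks had a higher authors' fold enrichment than the Arnt peak of the second region in knockout replicates 1 and 2, and 31.5% and 5.59% in GFP replicates 1 and 2. The lists differ in length, so these ranks show no change. Tiparp had a region in all 4 libraries at chr3:65527924-65528387, 60 bases before the start at its nearest, which overlaps the printed window. A second region, chr3:65528479-65528743, was in knockout replicate 2 and GFP replicate 2, and 2 more inside the gene were in GFP replicate 2 alone. Of all promoter windows, 15.2% overlapped a peak in all 4 libraries and 72.0% in none.

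The P450 genes had no peak in their promoter windows. Cyp1b1 had a region in all 4 libraries at chr17:79715409-79716228, 348 bases before the start at its nearest, with peaks of 677 and 226 bases in knockout replicates 1 and 2, against 604 and 820 bases in GFP replicates 1 and 2. In knockout replicate 2, 91.0% of the library's own peaks had a higher fold enrichment than this one, and in knockout replicate 1 17.4%, against 18.1% and 20.9% in the GFP libraries. Knockout replicate 2 also had a separate peak 3370 bases past the other end of the gene. Cyp1a1 had no peak in its gene body in any library. The annotated span used as its body begins well upstream of the start site of the printed window, so the search also covered that upstream stretch. Its 2 regions, chr9:57708265-57708489 and chr9:57708551-57708828, lay 4441 bases or more past its end. The first lay 80 bases from the start site of Edc3, and the second covered that site. The first was in GFP replicate 2 alone, and the second in knockout replicate 2 and GFP replicate 2. The window of Cyp1a1 printed above, like that of Ahrr, overlapped no peak in any library.

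The peaks within 5 kb of Ahrr merged into 1 region, chr13:74208370-74209044, which at its nearest was 2074 bases beyond the end of the gene. The merged region, though not each peak in it, covered the start site of Exoc3, a neighbouring gene. Aldh3a1 had 1 region, chr11:61208062-61208457, 53 bases below the low-coordinate end of the gene, in knockout replicate 1 and both GFP libraries. The share of the library's own peaks with a higher fold enrichment was 83.5% in knockout replicate 1 and 36.7% and 32.7% in the GFP libraries. Ahr had 1 peak, chr12:35534674-35535028, at the high-coordinate end of its body in GFP replicate 2. Of the 13 regions, 5 were in all 4 libraries and 5 in 1 library, and 4 of those 5 were in GFP replicate 2, the longest list. Read only within gene bodies rather than 5 kb around them, 1 member, Arnt, had a peak in every library.

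**Figure D5:**
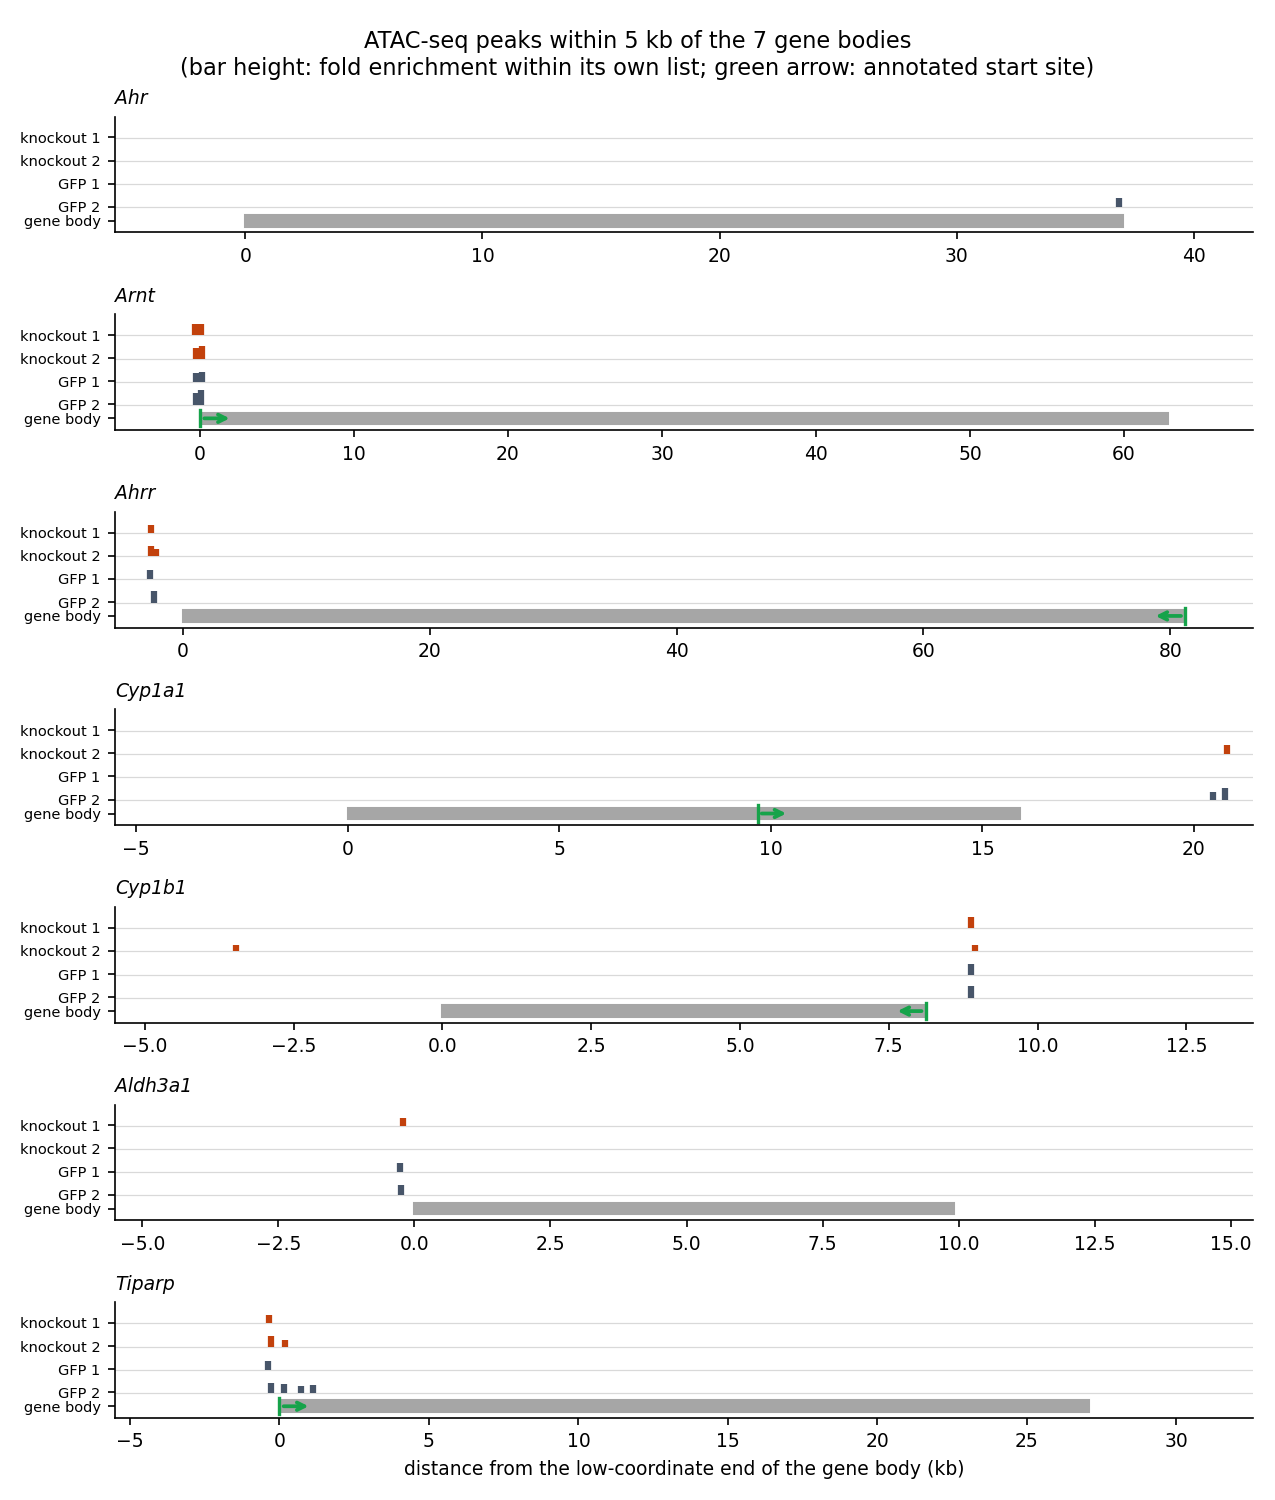
Peaks within 5 kb of each gene body (grey), placed by distance in kb from its low-coordinate end, with knockout libraries above GFP libraries; bars stand at peak centres with a fixed width, their height is the authors' fold enrichment, to be read within a library, and green arrows mark annotated start sites where the table gives one. In all 4 libraries a peak covers the start site of Arnt, 1 ends 60 to 214 bases from that of Tiparp and 1 lies 348 to 716 bases from that of Cyp1b1, and none lies in the Cyp1a1 gene body.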

How the data were processed

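The authors deposited raw read counts by gene symbol for 6 RNA-seq libraries in 1 table, and a peak list for each of 4 ATAC-seq libraries, with replicates not pooled. Per the submitters' processing notes, RNA-seq used Trim Galore 0.6.5, STAR, HTSeq and DESeq2, and ATAC-seq used Trim Galore 0.6.5, Bowtie2 2.4.2 and MACS2, both with mm10. Not given in the sources used here were the annotation, strand setting, handling of multi-mapped reads, peak threshold, duplicate removal and cut-site shifts. Each deposited peak carries the authors' fold enrichment, a ratio to its own library's background, and −log10 p and q values, used only within a list.

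Counts were tested with edgeR 4.0.16 in R 4.3.3 (glmQLFit and glmQLFTest, two-sided, TMM scaling, filterByExpr), with Benjamini-Hochberg adjustment over 15335 genes. The SE of a log2 fold change is its size over the square root of F. Replicate pairs differed by 7.25 or more in chi-square per degree of freedom, beyond sampling noise. Alternatives were RLE factors, library size alone, no filter, DESeq2 1.42.0, limma-voom 3.58.1, a replicate block, leaving out each library, and other peak distances and thresholds. The distances in profile used a prior count of 2. Peaks of different libraries sharing at least 1 base were merged into regions.

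The 7 genes and all lists were chosen with earlier results of these data known. Named were all 7 genes, each list gene that passed the threshold with up to 3 of the most counted that did not, and the 5 nearest profiles of 4 members; genes named because an alternative called them were chosen after their values were seen. Some genes that these rules name are not reported here.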

Additional observations from a re-analysis of the deposited data

How the results depend on the processing

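Genes called higher numbered 911 and lower 1134, against 1428 and 1574 with no filter (25301 genes tested) and 1320 and 1540 in DESeq2. With a replicate block they numbered 1557 and 1619. The labels do not say that a replicate number marks a shared culture or day, so the numbers were not taken as pairs. Deviations of same-numbered libraries correlated at 0.03, 0.21 and 0.09 across genes, and those of differently numbered libraries at -0.19 to 0.09. Whether the numbers mark pairs was not tested. The block left the 4 members higher and added Ahr as lower. Leaving out 1 library gave 369 to 1085 higher and 577 to 1244 lower genes. The smallest counts were 369 higher and 610 lower without control replicate 1, 404 and 577 without strained replicate 3, and 420 and 661 without strained replicate 2; the cause was not tested, beyond having fewer libraries. Cyp1a1 ran from 4.81 to 5.86 on the log2 scale, and its 5.86 without control replicate 3 was the one member value that moved by more than the spread between replicates. Ahr also passed the threshold as lower with no filter, in DESeq2 and without control replicate 3, and Ahrr missed it without strained replicate 3. Of the 38 list genes called, 10 lost the call in at least 1 fit with a library left out, and 11 others tested with all 6 libraries gained one; over these fits list genes called ran from 16 to 27 higher and 13 to 18 lower, which counts also genes that passed the filter only there. Within lists, PARPs called higher numbered 3, against 5 with no filter and in DESeq2 and 6 with the block, coregulators none against 4 in each of these, and P450 partners 1 against 2. Members with a peak in every ATAC-seq library numbered 4, and 1 at 0 kb from the gene body; it was 4 at 10 kb, with a −log10 q of at least 5 and with a stricter overlap, and 4 or 5 without each ATAC-seq library in turn, an alternative added after seeing the data. Ahrr, at 16 to 28 control reads, and Cyp1a1, at 3 to 13, are the members limited by depth, and Gsta3, at 1 to 8, is also limited by it.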
